A study of Delphinapterus leucas with 24 samples.

Results

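The immediate early transcription factors are a set of 10 genes chosen by name and Entrez Gene ID: FOS (2353), FOSB (2354), FOSL2 (2355), JUN (3725), JUNB (3726), JUND (3727), EGR1 (1958), IER2 (9592), ATF3 (467) and MYC (4609). In a table of blood transcripts from beluga whales (Delphinapterus leucas) 9 of the 10 IDs are listed, out of 9855 distinct IDs, and FOSB is not listed. The 9 listed genes are carried by 11 of the 45872 assembled transcript features, with a pair of features each for JUN and EGR1 and 1 feature for each other gene. No sequence of these features was used here, so the genes are identified by the Entrez Gene ID and protein accession beside each feature.

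Immediate early genes are switched on by signals that reach the nucleus through kinases, without new protein having to be made first, and their transcripts are usually short-lived. FOS and JUN family proteins pair through leucine zippers to form AP-1, a transcription factor that binds DNA as a dimer. EGR1 is a zinc finger factor, IER2 a small nuclear protein of the same early response, ATF3 a stress-induced relative of the AP-1 proteins, and MYC a regulator of growth and metabolism that works as a dimer with MAX. In leukocytes these genes respond to activation, adhesion and stress, and also to handling of the cells.

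The study sampled whales in Bristol Bay, Alaska, in 2012, 2013 and 2014, to look for transcripts that varied between years or between males and females. There are 24 libraries, 8 per year, of 15 males and 9 females: 5 males and 3 females in 2012, 4 and 4 in 2013, and 6 and 2 in 2014. Sampling fell between 1 and 12 September in 2012, between 23 and 30 August in 2013, and between 25 August and 3 September in 2014. The labels give neither age nor any treatment and do not say whether a library is from a whale already sampled in an earlier year. A p-value here therefore reflects variation among libraries, which may be technical in part.

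Levels are TPM, transcripts per 1000000, summed over the features of an ID and divided by a median-ratio size factor per library (called scaled TPM here). The size factors ran from 0.475 to 1.595, and the 3 most abundant features held from 2.72% up to 54.3% of a library's TPM. The depth behind each value is unknown, as TPM does not record it. Whole blood is a mixture, so fewer cells of a type and less RNA per cell cannot be told apart in any value given here.

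All 9 listed factors were above 0 in every library and passed the filter on low values. Their order by median level was JUNB, FOS, JUND, JUN, IER2, FOSL2, MYC, EGR1 and ATF3. JUNB stood at a median of 167 scaled TPM, above 96.5% of the IDs in the table, and ATF3 at 2.47 scaled TPM, above 6.36% of them. Neighbours in this order were often not separated. JUNB lay above FOS in 18 of 24 libraries, and their log2 ratio averaged 0.70 ± 0.97 (SD, n = 24). FOS lay above JUND in 10 of 24 libraries, and JUN above IER2 in 15. By contrast JUND lay above JUN, FOSL2 above MYC, and MYC above EGR1 in 24 of 24 libraries.

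Within the FOS family, FOS, the signal-induced member, showed the widest range. In 2012 FOS lay between 38.6 and 190 scaled TPM with a median of 96.9, in 2013 between 12.8 and 251 with a median of 145, and in 2014 between 22.7 and 211.8 with a median of 119. The ranges of the 3 years overlapped, and the highest library of the 24 held 19.6 times the level of the lowest. The lowest were both male, 2013 replicate 2 at 12.8 and 2014 replicate 5 at 22.7 scaled TPM. FOSL2, a family member with a slower response in cultured cells, was far more even. It lay between 33.4 and 83.1 scaled TPM in 2012, between 37.3 and 58.4 in 2013, and between 32.5 and 45.2 in 2014, with medians of 39.4, 42.5 and 40.3. A single female library, 2012 replicate 2, stood at 83.1, and the next highest of the 24 was 58.4.

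The JUN family varied much less than FOS. JUN, the partner of FOS in the classical AP-1 dimer, lay between 42.9 and 78.2 scaled TPM in 2012, between 55.2 and 84.1 in 2013, and between 36.5 and 73.8 in 2014, with medians of 62.3, 65.6 and 63.5. JUNB lay between 129 and 215 scaled TPM in 2012, between 132 and 214 in 2013, and between 140 and 222 in 2014, with medians of 156, 175 and 170. JUND, which is expressed steadily in many cell types, lay between 90.1 and 154 scaled TPM in 2012, between 94.2 and 167 in 2013, and between 87.2 and 184 in 2014, with medians of 119, 141 and 124. For all 3 of these genes the ranges of the years overlapped. The pair of JUN features kept a narrow ratio: TR7340|c0_g1 was higher than TR12858|c0_g1 in 24 of 24 libraries, by 1.80 to 2.62 times with a median of 2.20. The pair of EGR1 features was less even, with a ratio of 0.963 to 3.96 between them, a median of 1.62 and the same feature higher in 23 of 24 libraries.

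EGR1 and ATF3 were listed at low levels, where TPM values are least precise. EGR1 lay between 1.04 and 6.90 scaled TPM in 2012, between 1.13 and 5.91 in 2013, and between 2.65 and 7.05 in 2014, with medians of 3.48, 4.42 and 3.73. ATF3 lay between 0.692 and 3.30 scaled TPM in 2012, between 1.22 and 4.29 in 2013, and between 0.186 and 5.26 in 2014, with medians of 1.82, 2.74 and 3.32. The years overlapped in both genes. IER2 lay between 46.2 and 77.2 scaled TPM in 2012, between 41.8 and 64.0 in 2013, and between 52.4 and 85.5 in 2014, with medians of 56.0, 60.2 and 54.7. MYC lay between 14.5 and 33.3 scaled TPM in 2012, between 12.8 and 29.1 in 2013, and between 16.4 and 34.2 in 2014, with medians of 24.1, 18.7 and 23.2. In neither gene did a year stand apart from the others.

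**Figure D1:**
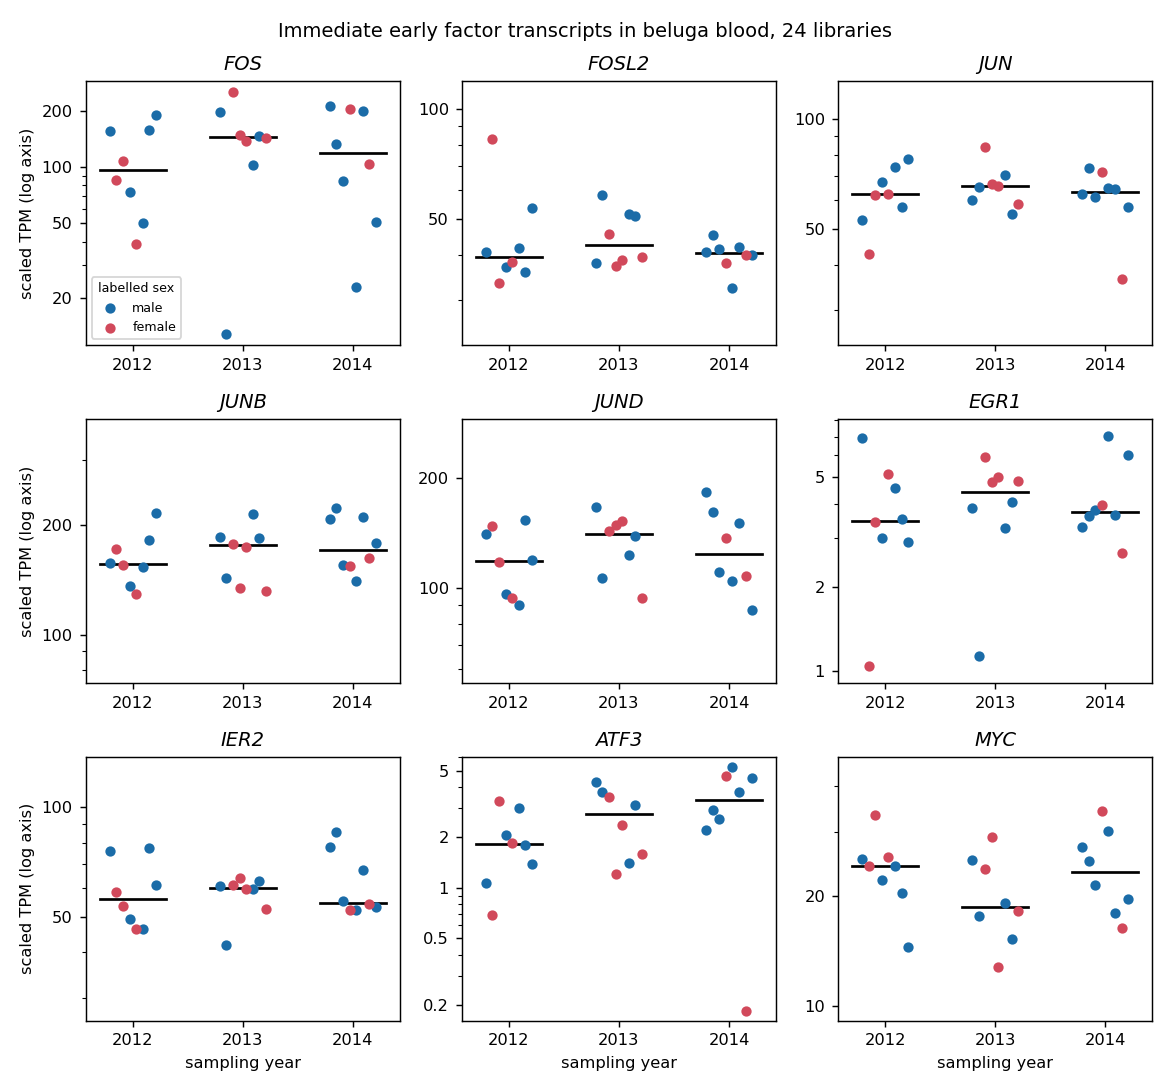
Scaled TPM (log axis, a separate range per panel) of the 9 listed factors in 24 libraries, by sampling year, with 1 point per library coloured by labelled sex and a bar at the median of each year (n = 8). FOS runs from 12.8 to 251 scaled TPM, whereas JUNB runs from 129 to 222, and the years overlap in every panel.

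The factors differed in their spread between libraries of the same year and sex. The residual SD of FOS, after year and sex were fitted, was 1.10 on the log2(scaled TPM + 1) scale, larger than that of 99.8% of the 9851 IDs tested, whose median was 0.25. The IDs with a mean level within 0.5 log2 of FOS, 649 besides FOS itself, had a median residual SD of 0.24. With each library left out in turn the residual SD of FOS lay between 0.87, without 2013 replicate 2, and 1.13, and exceeded that of 99.4% to 99.9% of IDs. Measured as the median absolute deviation of the residuals, which a few extreme libraries hardly move, the spread of FOS was 0.99 and exceeded that of 99.8% of IDs.

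The residual SD of ATF3 was 0.57 and that of EGR1 was 0.51, above 96.8% and 95.3% of all IDs, and above 91.5% and 91.7% of IDs at a similar level. MYC had a residual SD of 0.35 and JUND of 0.33, above 81.0% and 75.2% of all IDs, and above 89.2% and 78.8% of IDs at a similar level. FOSL2, JUN, IER2 and JUNB had residual SDs of 0.30, 0.26, 0.26 and 0.23, above 81.0%, 64.3%, 64.7% and 35.3% of IDs at a similar level. By the median absolute deviation JUND, at 0.40, exceeded 91.6% of all IDs and EGR1, at 0.36, exceeded 87.6%. For FOSL2 1 library decided the value: without 2012 replicate 2 its residual SD was 0.18, above 18.0% of IDs in place of 66.7%. These spreads are descriptions of the libraries and were not tested.

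**Figure D2:**
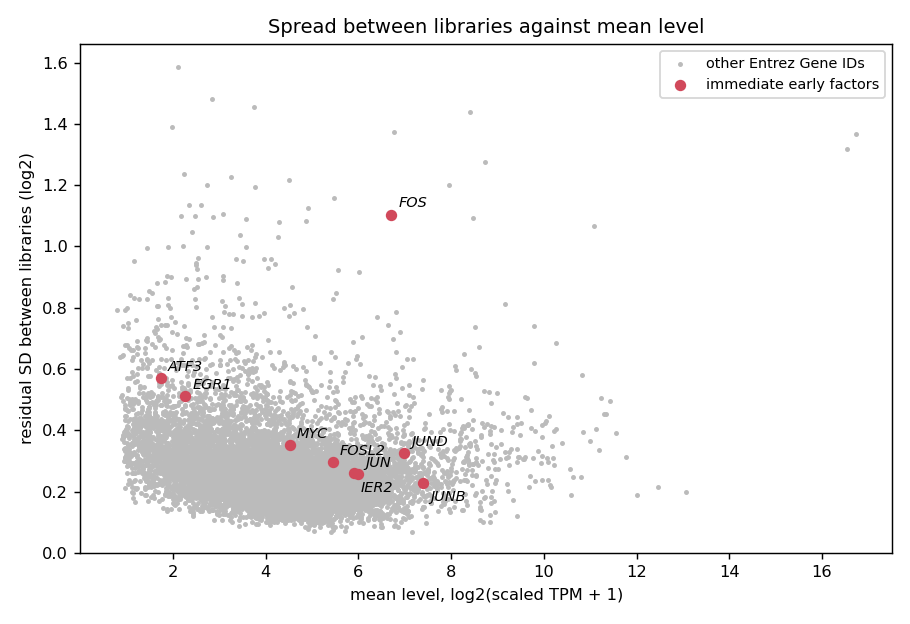
Residual SD between libraries after year and sex (log2 units) against mean level, log2(scaled TPM + 1), for 9851 Entrez Gene IDs, with the 9 immediate early factors in red. FOS lies at 1.10, far above most IDs of its level, whereas JUN, IER2 and JUNB lie between 0.23 and 0.26.

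The comparison of 2014 with 2012 asked whether the factors differed between the seasons at either end of the study. None of the 9 passed in limma (0 called, 0 at an unadjusted p under 0.05), where 5.76% of all 9851 IDs were called and 26.6% were under 0.05 unadjusted. The 567 IDs behind the 5.76% depend on single libraries. The count was 0 without 2012 replicate 4, 10 without 2012 replicate 8 or 2014 replicate 4, and 28 to 200 without 2012 replicate 2, 5 or 7 or 2014 replicate 1, 3 or 5. It was 1570 without 2012 replicate 1, 1294 without 2014 replicate 7 and 946 without 2014 replicate 8. The differences, 2014 minus 2012 on the log2(scaled TPM + 1) scale, had a median of 0.10 over the 9 factors, beside 0.12 over all IDs tested. On the deposited TPM the median over all IDs was -0.38, so the sign of a small difference depends on the scaling. Each difference is given beside the median of all IDs, but the p-values and intervals of limma are against 0. The 5.76% and 26.6% of all IDs therefore include any shift that the IDs share.

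ATF3 had the largest difference, 0.43 ± 0.26 (SE; 95% interval -0.11 to 0.97, adjusted p = 0.294). Its median was 3.32 scaled TPM in 2014 and 1.82 in 2012. Without the lowest library, female 2014 replicate 7, the difference of ATF3 was 0.69 and passed (adjusted p = 0.0418), in a fit that called 13.1% of all IDs. It was 0.28 without 2014 replicate 4, 0.17 without the 2 libraries in which 3 features held over 50% of TPM (left out after seeing the data), and 0.025 on the deposited TPM. Over all alternatives its adjusted p lay between 0.0418 and 0.930. For FOS the difference was 0.16 ± 0.53 (SE), and its 95% interval, -0.93 to 1.25, was the widest of the 9. The intervals of JUNB (-0.13 to 0.35), IER2 (-0.18 to 0.33), JUN (-0.29 to 0.22) and JUND (-0.22 to 0.42) were narrower, with differences of 0.11, 0.074, -0.036 and 0.10. EGR1 differed by 0.18 ± 0.24, MYC by 0.034 ± 0.16 and FOSL2 by -0.13 ± 0.14 (SE). The adjusted p of the 9 lay between 0.294 and 0.911. With the pair of features of JUN and of EGR1 fitted singly over all features, none passed either, with adjusted p between 0.573 and 0.956.

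**Figure D3:**
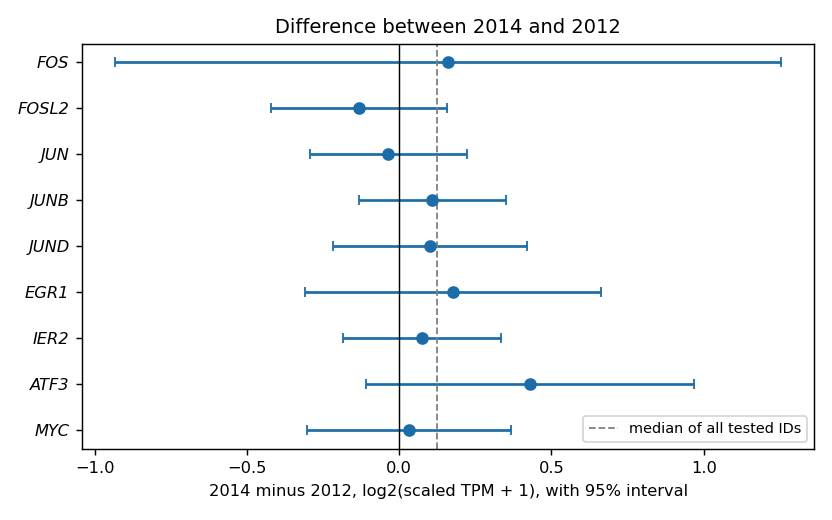
Difference 2014 minus 2012 on the log2(scaled TPM + 1) scale for each factor, with its 95% interval from limma, and the median of all IDs tested as a dashed line. Every interval spans 0, and that of FOS, -0.93 to 1.25, is the widest.

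The other pairs of years gave no call among the 9 factors either. For 2014 minus 2013, 0 of 9 passed (0 at an unadjusted p under 0.05), and the share among all IDs was 0% called and 29.7% under 0.05 unadjusted. The smallest p was that of MYC, with a median of 23.2 scaled TPM in 2014 and 18.7 in 2013, a difference of 0.29 ± 0.17 (SE, adjusted p = 0.236). When the day of the year was added as a covariate the MYC difference was 0.42 and passed (adjusted p = 0.0486), in a fit that called 20.5% of all IDs, whereas on the deposited TPM it was -0.12; over all alternatives the adjusted p lay between 0.0486 and 0.745. For 2013 minus 2012, 0 of 9 passed (0 unadjusted), again with 0% of all IDs called (1.67% unadjusted), and MYC differed by -0.26 ± 0.16 (SE, adjusted p = 1.00). The test over the 3 years together called 0 of 9 (0 unadjusted) and 1.46% of all IDs (24.9% unadjusted). Year and date are tied in this design, since every library of 2013 was taken in August and every library of 2012 in September.

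The comparison of males with females called 0 of 9 factors (0 unadjusted), where 0.132% of all IDs were called (3.44% unadjusted). JUNB came nearest. It lay between 136 and 222 scaled TPM with a median of 181 in the 15 males, and between 129 and 177 with a median of 155 in the 9 females, which differ by 0.19 ± 0.10 (SE; limma unadjusted p = 0.0657, adjusted p = 1.00). ATF3 had medians of 2.90 scaled TPM in males and 1.86 in females, which differ by 0.36 ± 0.22 (SE; adjusted p = 1.00). The ranges of males and females overlapped for both. The interaction of sex and year called none of the factors in limma (0 called) and 0% of all IDs (2.66% under 0.05 unadjusted). EGR1 alone was under 0.05 before adjustment, and its adjusted p in limma was 1.00.

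Which factors varied together between libraries was examined over the 36 pairs of the 9 factors. FOS, JUNB, JUND and IER2 are called a group here. Of their 6 pairs, 5 passed the correction over 36 pairs on both Pearson and Spearman correlation. The share of pairs of other IDs that would pass was not computed. The count therefore does not set these factors apart from other blood transcripts. The strongest was JUND with IER2, with r = 0.79 (permutation p = 1e-05, the smallest that 100000 permutations can give, adjusted p = 0.00036) and rho = 0.83 (adjusted p = 0.00036). FOS with IER2 had r = 0.68 (permutation adjusted p = 0.00336) and rho = 0.70 (adjusted p = 0.00279). FOS with JUND had r = 0.66 (permutation adjusted p = 0.00336) and rho = 0.70 (adjusted p = 0.00279). The correlation of JUNB with IER2 was r = 0.66 (adjusted p = 0.00497) and rho = 0.70 (adjusted p = 0.00279), and that of JUNB with JUND was r = 0.57 (adjusted p = 0.0215) and rho = 0.60 (adjusted p = 0.0167). FOS with JUNB, the sixth pair, had r = 0.50 and did not pass (permutation adjusted p = 0.0532; rho = 0.49, adjusted p = 0.0902). On values centred within each combination of year and sex, FOS with JUNB had r = 0.72 and passed (permutation adjusted p = 0.0076), as did the other 5 pairs. Centred within year alone, FOS with JUNB had r = 0.51 and did not pass (permutation adjusted p = 0.06). Nor did it pass without the 2 libraries farthest from the median of FOS (r = 0.44, permutation adjusted p = 0.196).

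These 5 relations held without the libraries most extreme in the factor named first, and on values centred within year. Libraries extreme in the second factor were not left out. Without the 2 libraries farthest from the median of the factor named first, r was 0.78 for JUND with IER2, 0.62 for FOS with IER2, 0.75 for FOS with JUND, 0.61 for JUNB with IER2 and 0.59 for JUNB with JUND, and all 5 passed again. On values centred within year the same r were 0.81, 0.70, 0.66, 0.65 and 0.58, and all 5 passed in permutations within years. Within single years r of JUND with IER2 was 0.89 in 2012, 0.71 in 2013 and 0.82 in 2014 (n = 8 each, not tested). The other pairs were less even over the years. Their r ran from 0.52 to 0.89 for FOS with IER2 and from 0.53 to 0.77 for FOS with JUND. It ran from 0.44 to 0.90 for JUNB with IER2 and from 0.46 to 0.68 for JUNB with JUND. Single libraries followed this only in part. The library lowest in FOS, 2013 replicate 2, was also the lowest of all 24 in IER2, at 41.8 scaled TPM, but JUND stood at 107 there. The library highest in FOS, 2013 replicate 3 at 251 scaled TPM, had JUND at 143 and IER2 at 61.2, whereas JUND was highest, at 184, in 2014 replicate 1, the next highest in FOS.

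**Figure D4:**
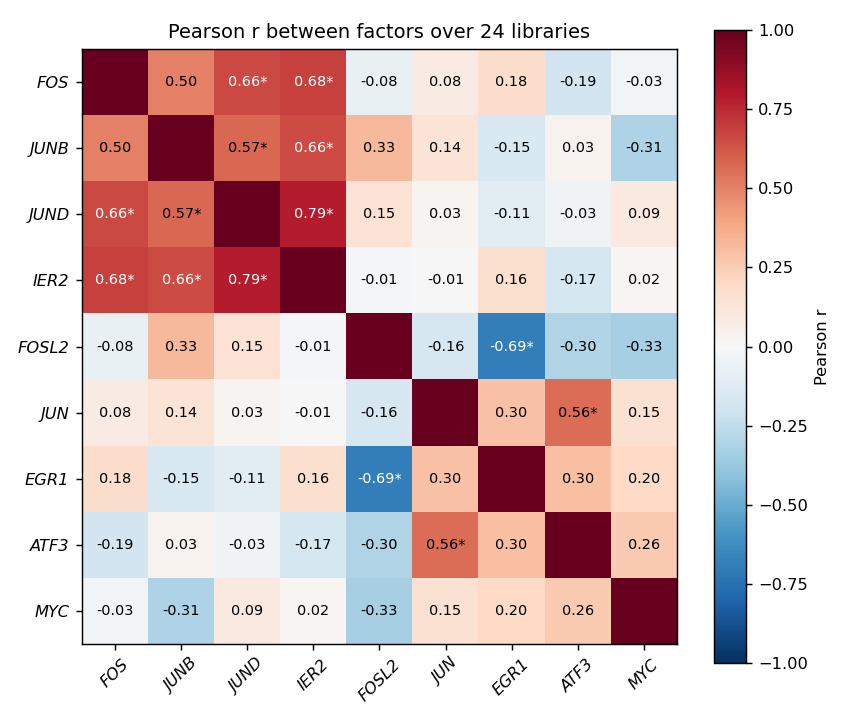
Pearson r between the log2(scaled TPM + 1) values of each pair of factors over 24 libraries, with a star where the permutation p adjusted over 36 pairs is under 0.05. FOS, JUNB, JUND and IER2 share r of 0.50 to 0.79, and JUN has r of 0.08 with FOS.

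JUN stood outside this group. Its r was 0.08 with FOS (permutation adjusted p = 0.887), 0.14 with JUNB (adjusted p = 0.743), 0.03 with JUND (adjusted p = 0.977) and -0.0062 with IER2 (adjusted p = 0.977). The ratio of FOS to JUN accordingly ran from 0.196 in 2013 replicate 2 to 3.40 in 2014 replicate 1. In 2013 replicate 2 JUN was at 65.4 scaled TPM, next to the median of its year, while FOS was lowest of all libraries. EGR1, the other classical early response factor, had r of 0.18 with FOS (permutation adjusted p = 0.743), and within years this r was -0.07 in 2012, 0.95 in 2013 and -0.79 in 2014 (n = 8 each, not tested). In 2013 replicate 2 EGR1 was low with FOS, at 1.13 scaled TPM, whereas in 2014 replicate 5, the other library lowest in FOS, EGR1 was the highest of all 24 libraries at 7.05 scaled TPM, and so was ATF3 at 5.26.

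A pair of further relations passed on Pearson correlation but rested on a few libraries. JUN with ATF3 had r = 0.56 (permutation adjusted p = 0.0215) but rho = 0.25 (adjusted p = 0.567), and r was 0.09 without the 2 libraries farthest from the median of JUN. Female 2014 replicate 7 was lowest of all in both genes, at 36.5 scaled TPM of JUN and 0.186 of ATF3, and female 2012 replicate 2 was next, at 42.9 and 0.692. FOSL2 with EGR1 had r = -0.69 (permutation adjusted p = 0.00497) but rho = -0.37 (adjusted p = 0.29), and r was -0.27 without the 2 libraries farthest from the median of FOSL2. Those were 2012 replicate 2 and 2013 replicate 2, the 2 highest in FOSL2 (83.1 and 58.4 scaled TPM) and the 2 lowest in EGR1 (1.04 and 1.13). MYC passed with none of the other 8 factors over all 24 libraries. Without the 2 libraries farthest from the median of FOSL2, FOSL2 passed with MYC (r = -0.54, permutation adjusted p = 0.0438) and with JUNB (r = 0.64, adjusted p = 0.0168), beside r of -0.33 and 0.33 over all 24 libraries, which did not pass (adjusted p = 0.411 for each).

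**Figure D5:**
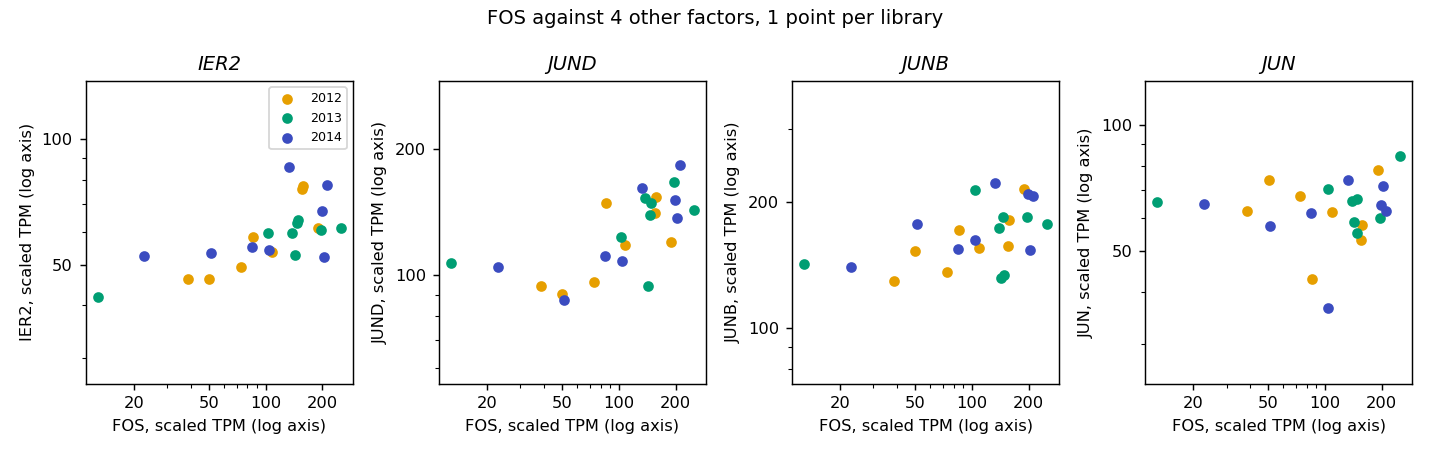
Scaled TPM of IER2, JUND, JUNB and JUN against FOS (log axes), 1 point per library, coloured by sampling year. IER2 and JUND are higher where FOS is higher (r = 0.68 and 0.66), whereas JUN stays between 36.5 and 84.1 scaled TPM across the whole range of FOS (r = 0.08).

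Levels of blood cell markers were set beside the factors, using lists of Entrez Gene IDs written down as erythroid (8 IDs), neutrophil (7), monocyte (3), lymphocyte (8) and platelet (4) markers. The table gives no symbols, so these IDs were not checked against a gene name table. All but 1 platelet ID were listed. Over the 45 relations between 9 factors and 5 summed lists, 0 passed on Pearson correlation and 2 on Spearman. FOS was higher where the summed monocyte IDs were higher, with rho = 0.62 (permutation adjusted p = 0.0283) and r = 0.54 (adjusted p = 0.0895), and r was 0.39 without the 2 libraries farthest from the median of FOS. The summed monocyte IDs lay between 403 and 944 scaled TPM in 2012, between 316 and 947 in 2013 and between 529 and 1290 in 2014, and all 3 IDs were listed. For the other 3 factors of the group, r with these IDs was 0.32 for JUNB, 0.26 for JUND and 0.32 for IER2, none of which passed (permutation adjusted p = 0.472, 0.636 and 0.472). FOSL2 was lower where the summed lymphocyte IDs were higher, with rho = -0.68 (permutation adjusted p = 0.0184) and r = -0.60 (adjusted p = 0.0769). That r was -0.70 without the 2 libraries farthest from the median of FOSL2. MYC with the lymphocyte IDs had the highest r of the 45, 0.56, and did not pass (permutation adjusted p = 0.0895). Its rho was 0.55 (permutation adjusted p = 0.0828). These lymphocyte sums lay between 618 and 1205 scaled TPM in 2012, between 712 and 1007 in 2013 and between 742 and 1299 in 2014. The part of cell makeup in the levels of the factors was not tested beyond these values.

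Genes whose pattern was most like a factor were ranked by Spearman correlation over the 24 libraries among the 9851 IDs. For FOS the closest ID had rho = 0.85 and the third rho = 0.77, and these 2 of its 5 closest IDs stand on a list, written down for this work, of other immediate early and feedback genes. The closest of the other factors to FOS was JUND (rho = 0.70), and 18 IDs had a higher rho than it. For JUN the closest ID was 388566 (rho = 0.82), and for EGR1 it was 23556 (rho = 0.74). The factor most like JUN or EGR1 was ATF3 in both cases (rho = 0.25 and 0.33), and 1284 and 1825 IDs had a higher rho than it. For JUN and for EGR1, 0 of the 5 closest IDs stand on the list of other immediate early and feedback genes. Only 28 of the 9851 IDs are on that list, so 0 of 5 says nothing about JUN or EGR1. The list was written with earlier results of these data known, so the 2 IDs for FOS are not independent support. The closest IDs are the highest of many, so these values describe the table and were not tested.

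Further IDs of the pathway, again unchecked against names, were examined as lists, to be read against the 5.76% of all IDs called for 2014 minus 2012 and the 26.6% under 0.05 unadjusted. Of 33 other immediate early and feedback IDs 28 were listed and tested, and 0 were called for 2014 minus 2012 in limma, with 3 higher and 1 lower when p was left unadjusted (under 0.05), and their median difference was 0.022. Of 17 upstream kinase and factor IDs, all listed, 0 were called, with 0 higher and 4 lower unadjusted and a median of -0.075. Of 15 other AP-1 and bZIP partner IDs 11 were listed, and 1 was called higher in 2014, by 0.71 ± 0.19 (SE, adjusted p = 0.0357). Unadjusted, 4 of these 11 were higher and 0 lower. Of 8 IDs of the MYC network and of EGR corepressors, all listed, 1 was called higher, by 0.40 ± 0.12 (SE, adjusted p = 0.0451). Unadjusted, 1 of these 8 was higher and 0 lower. A single call in lists of this size is not a result about the list. The corresponding medians of the last 2 lists were 0.20 and 0.13, beside 0.12 over all IDs. No ID of these lists was called for 2014 minus 2013, for 2013 minus 2012 or between males and females in limma. Of all IDs 0%, 0% and 0.132% were called in these comparisons, so the absence of calls says nothing about the lists. At most 3 IDs of a list were at an unadjusted p under 0.05, beside 29.7%, 1.67% and 3.44% of all IDs.

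Calls among the blood cell marker IDs for 2014 minus 2012 are to be read beside the 5.76% of all IDs called. Of the 8 erythroid IDs 1 was called higher in 2014 and 7 were higher at an unadjusted p under 0.05, with a median difference of 1.68, beside 26.6% of all IDs under 0.05 and a median of 0.12. Of the 7 neutrophil IDs 1 was called higher and 3 were higher unadjusted, 3 others had differences of -0.15 to -0.36 that did not pass, and the median was 0.043. No monocyte, lymphocyte or platelet ID was called in limma (0 called), and 1, 1 and 0 of them were under 0.05 unadjusted. The summed neutrophil IDs had medians of 12180 scaled TPM in 2014 and 7937 in 2012. The largest correlation of the neutrophil sum with FOS, JUN, JUNB, JUND or IER2 was r = 0.34, for IER2 (permutation adjusted p = 0.455).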

How the data were processed

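RNA of whole blood was extracted with a PAXgene kit and made into strand-directional libraries, per the labels' protocols. The submitters' processing notes name Trimmomatic, Bowtie2 and RSEM 1.2.21 without a role or order, and per the series' design text the transcriptome was assembled with Trinity. The authors deposited values read here as TPM, since each column sums to between 987069 and 997966. The table had been filtered: the lowest feature mean is 0.995 TPM and each feature is above 0 in at least 12 libraries. An Entrez Gene ID is carried by 14079 features; 1 further ID had been stored as a date and was not used.

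TPM were summed per ID, divided by median-ratio size factors over the 42462 features above 0 in every library, and fitted as log2(value + 1) with limma 3.58.1 in R 4.3.3 (trend and robust options) over the 9851 IDs at 1 or more in at least 8 libraries. Year contrasts had sex in the model and the sex contrast had year. The threshold for a call was 0.05 on p adjusted over all IDs by Benjamini-Hochberg. Fold differences on this scale understate the change of low genes. The fit was tested on simulated data. Correlations used two-sided permutation tests (100000 permutations, numpy 2.4.6), adjusted within each family. All 9 listed factors are named, other IDs are given by likeness to FOS, JUN and EGR1 or by list, those on a list without their ID numbers although the rule set for this work had called IDs named. The factors and lists were chosen with earlier results of these data known. Alternatives were other scalings, filters, pseudocounts, models and left-out libraries.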

Additional observations from a re-analysis of the deposited data

Results flagged for a closer look

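The 9 factors in 3 years make 27 groups of 8 libraries, and in 5 of them the lowest library lay well apart. About 1 group in 20 does so by chance, and the factors share libraries. Male 2013 replicate 2 accounts for 3 of them. Its FOS was at 3.79 on the log2(scaled TPM + 1) scale, where its year otherwise ran from 6.70 to 7.98. Its EGR1 was at 1.09, against 2.10 to 2.79, and its IER2 at 5.42, against 5.75 to 6.02. Female 2014 replicate 7 accounts for the other 2, with JUN at 5.23 where its year otherwise ran from 5.87 to 6.23, and ATF3 at 0.246, against 1.69 to 2.65. The 3 most abundant features held 45.5% of TPM in the 2013 library and 40.9% in the 2014 one, within the range of the other libraries of the series. The share of the 2013 library was the highest of its year, in which the lowest was 7.64%. In 2014 the shares ran from 21.1% to 54.3%.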

How the results depend on the processing

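No paired analysis was possible because replicate numbers follow the order of the labels and tie no animals across years. The fit without the 2 libraries in which 3 features hold over 50% of TPM was chosen after seeing the data. For 2014 minus 2012 the count of factors called was 0, except 1 on the deposited TPM (FOSL2, -0.67, adjusted p = 0.0483), where 11.3% of all IDs were called, and 0 to 1 with each library left out. For 2014 minus 2013 it was 1 with day of the year, where 20.5% of all IDs were called. Over all IDs the calls for 2014 minus 2012, 567, came to 0 in males alone and under either covariate (day of the year, share of the 3 features), fewer after quantile normalisation (2.9% of IDs in place of 5.76%), 357 with size factors over ID sums, 1297 with library weights and 0 to 1570 with each library left out. No other comparison of years or sexes had a factor called under any alternative. Signs turned as follows, all without a call, and the cause was not tested. On deposited TPM the 2014 minus 2012 differences were -0.38 for FOS, -0.44 for JUNB, -0.44 for JUND, -0.24 for EGR1, -0.46 for IER2 and -0.49 for MYC, and MYC was -0.12 for 2014 minus 2013. With size factors over ID sums they were -0.029 for JUNB, -0.036 for JUND, -0.062 for IER2 and -0.1 for MYC. Quantile normalisation gave -0.043 for FOS, -0.11 for JUNB, -0.093 for JUND, -0.11 for IER2 and -0.11 for MYC. Day of the year gave -0.017 for FOS, 0.028 for JUN, -0.40 for JUND, -0.15 for IER2 and -0.54 for MYC. The share of the 3 features as a covariate gave 0.037 for JUN and -0.24 for MYC. MYC was -0.041 with library weights and -0.015 without the 2 libraries, and FOS was -0.29 in males alone. With each library left out FOS lay between -0.043 and 0.44, JUN between -0.098 and 0.079, and MYC between -0.058 and 0.15. A filter at 5 scaled TPM removes ATF3 and EGR1. Of the 36 correlations 7 passed, and 22 did on the deposited TPM, where all IDs of a library share its scale factor. On the deposited TPM FOSL2 with EGR1 had r = 0.12. The unknown depth limits EGR1 and ATF3 most.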
